A study of Homo sapiens with 5 samples.

Results

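The miR-200 family and the ZEB axis are described here through 10 genes, chosen by name and all measured, of 14812 genes that carried a name in the deposited table. They are the 5 miRNA genes MIR200A, MIR200B, MIR200C, MIR141 and MIR429, the repressors ZEB1, ZEB2 and SNAI2, the mesenchymal filament gene VIM and the epithelial splicing regulator ESRP1. The choice was made with the comparison of CDH26 and control clones already known, so their differences are given as a description, with no test. Each member had 1 probe set except VIM, which had 3 whose mean was taken.

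The samples were 5 clones of TE7, a human esophageal cancer cell line, each grown from a single cell and measured on 1 Affymetrix Gene 2.0 ST array. Of these, 2 clones had been transduced with pMIRNA1-puro-control and 3 with pMIRNA1-puro-CDH26, which expresses the cadherin CDH26. All clones were grown to confluence and then held for 24 h in RPMI with 1.8 mM calcium. The deposited values are logarithms centred on the mean of the control clones and are read here as log2. They give differences between clones and no level, so neither the abundance of a member nor the epithelial identity of the line can be read from them. Values of single clones follow the clone numbers, 1 to 3 for CDH26 and 1 to 2 for control. The CDH26 transcript itself lay 2.84 ± 0.13 (SE) log2 units above the controls where its construct was present. With limma and Benjamini-Hochberg adjustment, 0 of the 14812 genes passed an adjusted p of 0.05, and 1113 had an unadjusted p under 0.05. These p-values set the group difference against the spread between these clones.

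MicroRNAs of the miR-200 family pair through their seed, bases 2 to 8 of the mature strand, with sites in target mRNAs, among which those of ZEB1 and ZEB2 are the best known. ZEB1 and ZEB2 are zinc finger repressors that bind E-box motifs in promoters of epithelial genes and of the miR-200 clusters, so that each side of the circuit lowers the other. In epithelial cells the miRNAs prevail, and in mesenchymal cells the repressors do, together with SNAI2 and vimentin. The circuit is studied in the epithelial-mesenchymal transition (EMT), in which cadherin-based junctions are taken apart.

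The 5 family members fall into seed groups that cut across their genomic clusters, and their main mature strands are shown so that the gene that stood apart, MIR200C, can be set against the others. Capitals mark the seed. The sequences are those of RefSeq on GRCh38.p14, read 5′ to 3′, and all lie on the plus strand. MIR200B, MIR200A and MIR429 lie together on chromosome 1, at chr1:1167160-1167181, chr1:1167916-1167937 and chr1:1169055-1169076 for the strands printed, and MIR200C and MIR141 on chromosome 12, at chr12:6963742-6963764 and chr12:6964155-6964176.
hsa-miR-200b-3p: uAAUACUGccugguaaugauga
hsa-miR-200c-3p: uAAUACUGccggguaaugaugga
hsa-miR-429: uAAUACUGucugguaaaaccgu
hsa-miR-200a-3p: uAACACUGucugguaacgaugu
hsa-miR-141-3p: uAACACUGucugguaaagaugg

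The strands of miR-200b, miR-200c and miR-429 share the seed AAUACUG, and those of miR-200a and miR-141 share AACACUG. Between the cluster partners miR-141 and miR-200c the seed differs by C4U, counted from 1 at the 5′ end, and over their first 22 bases 18 are identical. The closest pairs are miR-200b with miR-200c and miR-141 with miR-200a, each identical at 20 of 22 bases. In each of these pairs the genes lie on different chromosomes. On this array a probe set named for a miRNA gene stands for the gene's precursor transcript, and the mature strands were not measured.

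MIR200C was the member that differed most. Its values were 0.62, 0.68 and 0.46 in the CDH26 clones, and 0.06 and −0.06 in the controls. All 3 CDH26 clones lay above both control clones, with a gap of 0.41 between the nearest clones of the groups. The mean difference was 0.59 ± 0.08 (SE), or 1.50-fold, with an SD of 0.11 over the CDH26 clones (n = 3). By absolute difference it ranked 400 among the 14812 named genes, and 2.70% of genes were at least as far from 0. Among the 1022 named miRNA genes it had the fourth most positive difference, and the groups were apart in the same direction in 6.85% of them and in the opposite direction in 4.50%.

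MIR141, which lies next to MIR200C, did not share its pattern across the clones. Its values were 0.11, 0.10 and 0.36 in the CDH26 clones against 0.10 and −0.10 in the controls. CDH26 clone 2 was tied with control clone 1, so the groups were not apart, and CDH26 clone 3 alone lay clearly above the others. The mean difference was 0.19 ± 0.12 (SE), and it was 0.29 without control clone 1, 0.09 without control clone 2 and 0.10 without CDH26 clone 3. The groups were apart, with CDH26 above, when control clone 1 or CDH26 clone 2 was left out. In those settings 25.9% and 11.5% of all named genes had CDH26 above. Setting the genes against each other within a clone, MIR200C departed from the control mean by 0.51 and 0.58 log2 units more than MIR141 in CDH26 clones 1 and 2, and by 0.10 more in CDH26 clone 3. CDH26 clone 3 thus had the lowest MIR200C and the highest MIR141 value of the CDH26 clones.

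The 3 miRNA genes of the chromosome 1 cluster lay near the control mean. MIR200B, which has the same seed as MIR200C, was at 0.04, 0.33 and 0.00 in the CDH26 clones and at −0.04 and 0.04 in the control clones. Only CDH26 clone 2 lay outside the control values, and the mean difference of 0.12 ± 0.12 (SE) was no larger than its error; without CDH26 clone 2 it was 0.02. MIR200A was at −0.07, −0.03 and 0.05 in the CDH26 clones and at −0.03 and 0.03 in the controls, a difference of −0.02 ± 0.05. MIR429 was at −0.04, −0.04 and 0.07 against −0.04 and 0.04, a difference of −0.002 ± 0.052. In both genes the CDH26 clones lay on either side of the control mean, and no clone was more than 0.072 from it.

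ZEB1, the repressor most often set against miR-200, was at 0.05, −0.002 and −0.10 in the CDH26 clones and at −0.002 and 0.002 in the controls. The difference was −0.02 ± 0.05 (SE), with CDH26 clone 1 above and CDH26 clone 3 below both controls. ZEB2, its paralog, was at 0.03, 0.01 and −0.01 against −0.01 and 0.01, a difference of 0.01 ± 0.02, with no clone more than 0.032 from the control mean. Without levels it cannot be told whether either gene was expressed at all in these cells.

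SNAI2 encodes Slug, an E-box repressor of the Snail family that is also present in basal cells of stratified epithelium. It was at −0.13, −0.05 and −0.03 in the CDH26 clones against −0.03 and 0.03 in the controls. All 3 CDH26 clones lay below both controls, but the nearest clones of the groups were only 0.008 apart. The difference was −0.07 ± 0.04 (SE), and 49.1% of named genes were at least as far from 0.

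VIM encodes vimentin, the intermediate filament protein of mesenchymal cells. Its mean over probe sets was 0.16, 0.03 and 0.003 in the CDH26 clones against −0.02 and 0.02 in the controls, and CDH26 clone 3 fell between the control clones. The difference was 0.06 ± 0.06 (SE). The 3 probe sets had differences of 0.11 ± 0.05, 0.03 ± 0.07 and 0.06 ± 0.07, and the first of them had all CDH26 clones above both controls, the lowest at 0.02 against 0.01. CDH26 clone 1 was the highest array in each of the 3 probe sets.

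ESRP1 encodes an RNA-binding protein that sets epithelial splicing and is lowered by ZEB1 in other systems. It was at −0.13, 0.01 and 0.05 in the CDH26 clones against 0.08 and −0.08 in the controls. The difference was −0.02 ± 0.08 (SE). CDH26 clone 1 was lowest, and the other CDH26 clones lay between the controls.

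**Figure D1:**
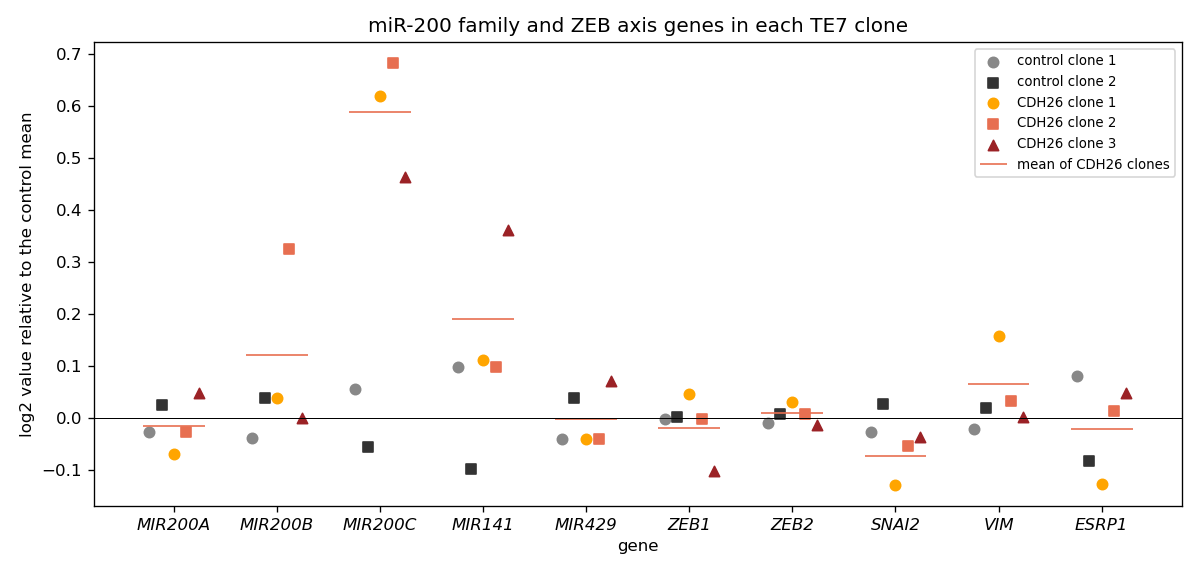
Log2 value of each of the 10 genes in each clone, set against the control mean. Points are single clones (2 control, 3 CDH26), 1 array each, and the short lines are means of the CDH26 clones. MIR200C is the gene whose CDH26 clones, at 0.46 to 0.68, lie clearly above both controls, and the ZEB1, ZEB2, VIM and ESRP1 points of the groups overlap.

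Among the 10 genes, groups were apart with CDH26 above control in 1, MIR200C, and with CDH26 below control in 1, SNAI2, against 8.98% and 9.93% of all named genes. The other 8 overlapped. The mean difference was positive in 5 members and negative in 5, and it was under 0.25 in size in 9. Ordered from the most positive, MIR200C at 0.59 was followed by MIR141 at 0.19, MIR200B at 0.12, VIM at 0.06, ZEB2 at 0.01, MIR429 at −0.002, MIR200A, ZEB1 and ESRP1 at −0.02 each and SNAI2 at −0.07. From MIR141 down, genes next to each other in that order differed by less than the larger of their standard errors. For scale, the median absolute difference of all named genes was 0.07, and the median gap between the control clones was 0.09.

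Exact ties between arrays, counted within 1e-05, touched 6 of the 10 members, while 46.3% of all named genes and 46.2% of miRNA genes had 5 distinct values. In MIR429 control clone 1 and CDH26 clones 1 and 2 shared 1 value. CDH26 clone 2 equalled control clone 1 in MIR200A, MIR141 and ZEB1 and control clone 2 in ZEB2, and in MIR200B CDH26 clone 1 equalled control clone 2. MIR200C, SNAI2, VIM and ESRP1 had no ties. The reason for the ties is not recorded in the sources used here.

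Genes beside the clusters were examined for a shift shared with MIR200C. Of 16 genes listed around MIR200C and MIR141, 10 were measured, and their median difference was 0.02, from −0.09 in PHB2 to 0.31 in CDCA3. PHB2, which encodes a mitochondrial prohibitin and lies just beyond MIR141, was at −0.12, −0.11 and −0.04 in the CDH26 clones against 0.04 and −0.04 in the controls. C12orf57, the nearest measured gene of the list on the other side, had a difference of −0.08 ± 0.09 (SE). The listed genes that gave positive differences were led by CDCA3, a cell cycle gene, at 0.33, 0.30 and 0.30 against 0.21 and −0.21. The host transcript MIR200CHG and the adjacent PTPN6 were not analysed here.

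Around the chromosome 1 cluster 7 of 14 listed genes were measured, with a median difference of −0.02. RNF223, a ring finger gene, had the most negative difference, −0.61 ± 0.36 (SE), and its CDH26 clones, at −0.46, −0.87 and −0.50, lay near control clone 1 at −0.50 and far from control clone 2 at 0.50. SDF4, on the other side of the cluster, was at −0.06 ± 0.02. In neither neighbourhood did a listed gene have an unadjusted p under 0.05 (limma, against 7.51% of all named genes), and 0 passed the adjusted threshold. CDCA3 was at 0.52 without control clone 1, which at 0.21 was the higher control. Without control clone 2, at −0.21, the CDCA3 difference is smaller than with both controls.

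**Figure D2:**
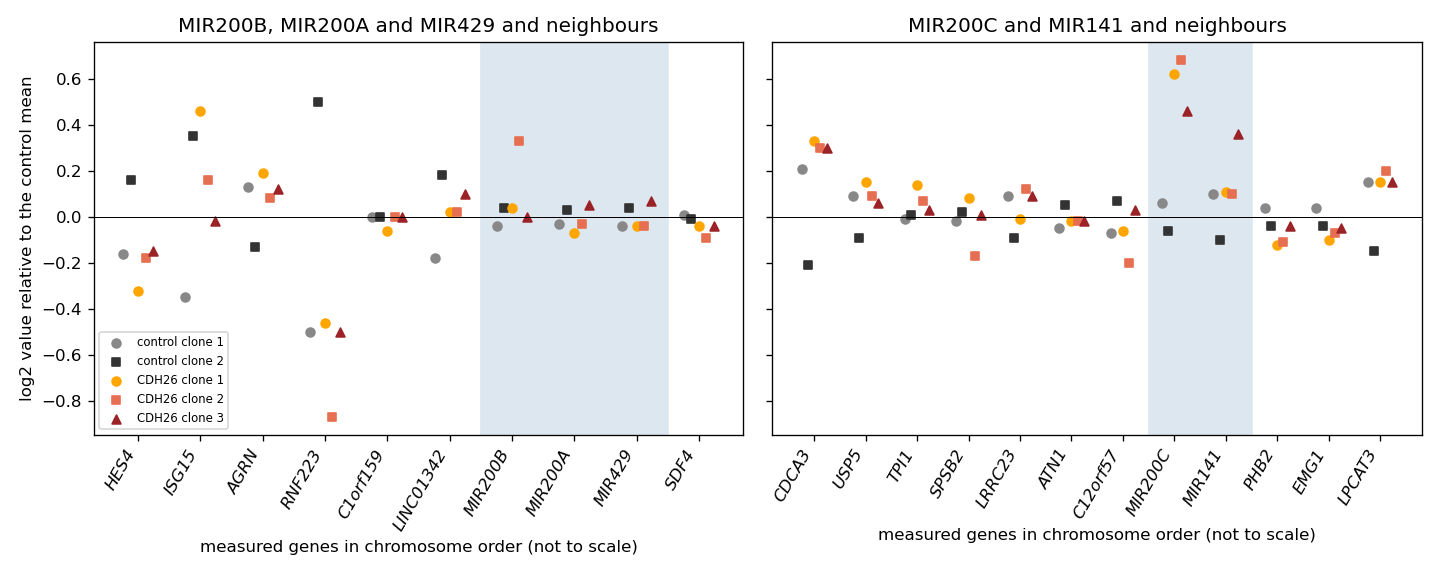
Log2 value relative to the control mean for the measured genes around each miR-200 cluster, in chromosome order and not to scale, with the miRNA genes shaded. Points are single clones. The CDH26 clones of MIR200C stand above both controls, while those of the adjacent PHB2, at −0.12 to −0.04, do not.

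MIR200C and MIR141 are made from the transcript MIR200CHG, whose promoter is known as a ZEB binding region. It is shown because it is the stretch through which the ZEB genes and the member that differed most are linked. The window, chr12:6962995-6963294 on the plus strand of GRCh38.p14 (RefSeq), runs from 250 bases before the transcript start to 50 after it. Capitals mark matches to the E-boxes CAGGTG and CAGGTA, searched on both strands, so also as CACCTG and TACCTG.
MIR200CHG promoter: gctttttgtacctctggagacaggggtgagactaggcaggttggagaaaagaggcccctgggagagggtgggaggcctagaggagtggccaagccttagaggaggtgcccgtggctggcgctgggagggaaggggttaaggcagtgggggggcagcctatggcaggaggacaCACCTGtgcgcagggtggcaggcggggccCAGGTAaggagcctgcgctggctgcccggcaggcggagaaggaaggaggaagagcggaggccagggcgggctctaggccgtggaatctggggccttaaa

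The window held 2 matches, CACCTG beginning 78 bases and CAGGTA beginning 49 bases before the start. Of 35116 windows of the same length, 20.6% held CAGGTG, 9.83% held CAGGTA, 28.1% held either and 5.90% held at least 2 matches. Of the members, ZEB1 had 7 windows in the table, of which 5 held a match, and the windows of ZEB2 and VIM held none. No window was available under the names of the other members, SNAI2 and ESRP1 among them, so they were not searched. A match is a description of the letters, and binding was not measured.

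Other genes of the circuit, like the neighbours above, came from lists drawn up by name with earlier results of these data known. Their p-values are therefore given as a description. For genes described as direct miR-200 targets, 25 of 35 were measured, with a median difference of −0.03 against 0 for all named genes. With limma, 0 passed the adjusted threshold, and 2 had an unadjusted p under 0.05, both of them higher, against 7.51% of all named genes in either direction. LOX, the lysyl oxidase that cross-links collagen, was at 1.70, 2.22 and 0.90 in the CDH26 clones and at −0.03 and 0.03 in the controls, a difference of 1.61 ± 0.43 (SE; adjusted p = 0.626). The adaptor CRKL differed by 0.13 ± 0.04 (adjusted p = 0.626). The most negative value was that of the chemokine CXCL8, −1.16 ± 0.48, at an unadjusted p of 0.0757.

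Among epithelial genes known to be repressed by ZEB proteins, 27 of 40 were measured, with a median difference of −0.07, and 9 were positive and 17 negative. At the unadjusted threshold 3 passed, 2 higher and 1 lower, against 7.51% of all named genes in either direction. The adjusted threshold was passed by 0. EHF, an epithelial ETS factor, was at 1.45, 1.43 and 0.65 in the CDH26 clones against 0.09 and −0.09, a difference of 1.18 ± 0.31 (SE; limma, adjusted p = 0.626). ESRP2, the paralog of ESRP1, differed by 0.13 ± 0.04 and GRHL2, a grainyhead factor that opposes ZEB1, by −0.13 ± 0.04 (adjusted p = 0.626 for each). The most negative differences were those of the unconventional myosin MYO5C, −0.48 ± 0.22, and of the tight junction gene OCLN, −0.47 ± 0.31. Among claudins of the list CLDN4 was at −0.29 ± 0.22 and CLDN7 at −0.07 ± 0.10, and the polarity genes CRB3 and LLGL2 were at 0.02 ± 0.09 and −0.07 ± 0.06. The list median depended on the control kept, at −0.11 with control clone 2 as the only control and −0.03 with control clone 1. E-cadherin, CDH1, was not analysed here.

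Mesenchymal genes were covered in part, 17 of 40, with a median difference of −0.16, and 12 were negative and 5 positive. LOX was the 1 gene past the unadjusted threshold, against 7.51% of all named genes, and 0 passed the adjusted one. By clone the median was −0.22, −0.22 and −0.08 in the CDH26 clones, all between or just beyond the −0.17 and 0.17 of the controls. Leaving out control clone 1 gave a median difference of −0.37, and leaving out control clone 2 gave −0.03. FSTL1, a secreted follistatin-like glycoprotein, had the most negative difference, −1.02 ± 0.37 (SE; unadjusted p = 0.0547). Fibronectin, FN1, a miR-200 target and mesenchymal marker, was at −0.13 ± 0.41.

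Of 18 other transcription factors of EMT 14 were measured, with a median of −0.04. HMGA2, an architectural chromatin factor, differed by −0.22 ± 0.08 (SE, limma adjusted p = 0.626), with values of −0.35, −0.15 and −0.15 in the CDH26 clones. It was the 1 gene past the unadjusted threshold, against 7.51% of all named genes. SNAI1, the paralog of SNAI2, was at −0.24 ± 0.14, and TWIST1 at 0.10 ± 0.09. The forkhead factor FOXQ1 had the same value, 0.21, in all 3 CDH26 clones and was at 1.09 and −1.09 in the controls. Its difference was 0.21 ± 0.71, and 1.30 without control clone 1. With control clone 1 as the only control the difference is negative, because 0.21 lies below 1.09.

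ZEB corepressors and genes of SMAD signalling, 13 of 20 measured, had a median of −0.09. The unadjusted threshold was passed by 3, 1 higher and 2 lower, against 7.51% of all named genes in either direction. SMAD6, an inhibitory SMAD, was at −1.17, −1.08 and −0.59 in the CDH26 clones against −0.20 and 0.20, a difference of −0.95 ± 0.24 (SE; limma, adjusted p = 0.626). SKIL, a SMAD corepressor, differed by −0.88 ± 0.30, and RCOR1, a partner of the demethylase KDM1A, by 0.36 ± 0.11 (adjusted p = 0.626 for each). The median over the list was −0.02 when control clone 1 was left out and −0.18 when control clone 2 was. The ZEB corepressors CTBP1 and CTBP2 were at 0.18 ± 0.12 and −0.12 ± 0.06.

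Smaller lists followed the roles of single members. Of 11 splicing regulators of EMT beside ESRP1, 8 were measured; SRSF1, a serine-arginine splicing factor, differed by −0.28 ± 0.09 (SE; limma, adjusted p = 0.626), and ESRP2 is given above. Of 12 filament genes related to VIM, 7 were measured, and lamin B2, LMNB2, differed by −0.37 ± 0.09 (adjusted p = 0.626). Of 14 genes of miRNA processing and silencing 6 were measured, with a median of −0.10, and 0 passed the unadjusted threshold, against 7.51% of all named genes. DGCR8, which binds the primary transcript for cleavage, was at −0.02 ± 0.02.

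**Figure D3:**
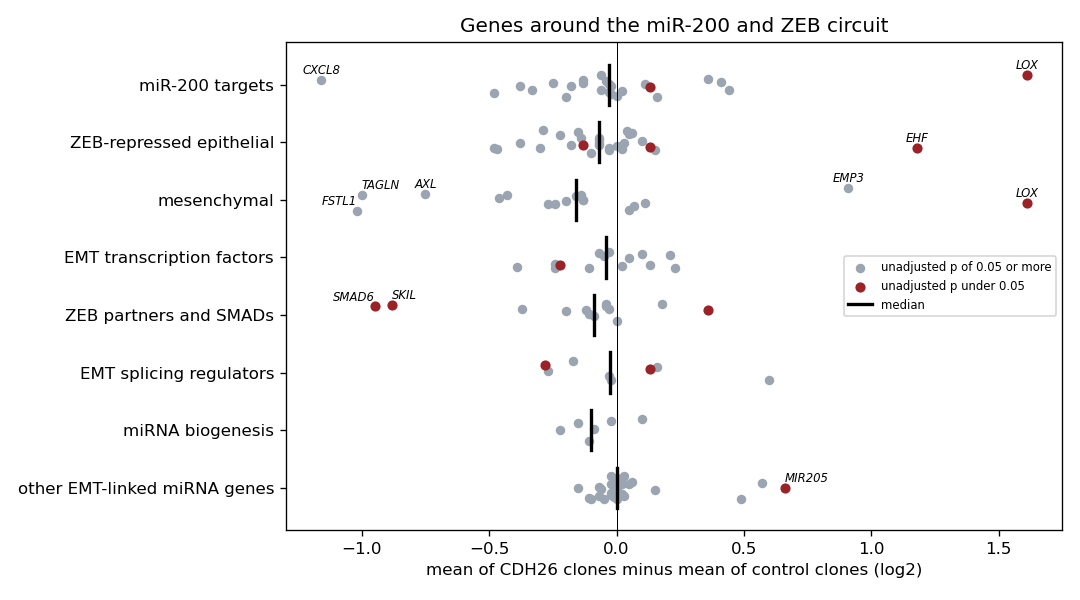
Difference of each measured gene between the mean of the 3 CDH26 clones and the mean of the 2 control clones, on the log2 scale, by list, for 8 lists of the circuit; the filament, neighbour and cell type lists are not plotted. Black lines are list medians and red points have an unadjusted p under 0.05 in limma. The plotted medians lie between −0.16 and 0, and among the plotted genes LOX, at 1.61, and CXCL8, at −1.16, are at the ends.

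MIR205 is known to act with miR-200 on ZEB1 and ZEB2 and is abundant in squamous epithelium. It was at 0.79, 0.73 and 0.47 in the CDH26 clones and at 0.10 and −0.10 in the controls, so the CDH26 clones lay above both controls. CDH26 clone 3 was the lowest of them, as for MIR200C. That clone also lay nearest the control mean in LOX, EHF, SMAD6 and SKIL, though not in CRKL or ESRP2, so the order is not particular to these miRNA genes. The difference was 0.66 ± 0.13 (SE; limma, unadjusted p = 0.00783, adjusted p = 0.626). It was the 1 gene past the unadjusted threshold among 27 measured of 31 other miRNA genes linked to EMT, whose median difference was 0. Of all named genes 7.51% passed that threshold. MIR205 was at 0.56 without control clone 2.

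Markers of squamous epithelium also had positive differences in the CDH26 clones. Of 8 listed 5 were measured, all 5 were positive, and their median by clone was 0.72, 0.75 and 0.50 in the CDH26 clones and 0.24 and −0.24 in the controls. The median difference was 0.63 against both controls. It rose to 1.10 when control clone 2 was the only control and fell to 0.50 when control clone 1 was. KRT14, the basal keratin, differed by 2.72 ± 0.43 (SE, limma adjusted p = 0.626) and SFN by 0.63 ± 0.11 (adjusted p = 0.626). Markers of other cell types were measured only in part. Of the fibroblast list 3 of 10 genes were measured, with LUM, the proteoglycan lumican, at 1.59 ± 0.42, and of the leukocyte list 3 of 7, with the lysosomal protein CD68 at 1.07 ± 0.33 (adjusted p = 0.626 for each); the medians of these lists were 0.02 and 0.01. Their part in the values of the miRNA genes was not tested.

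The list genes named for an unadjusted p under 0.05 numbered 16, and none changed sign when a clone was left out. With each of the 3 CDH26 clones left out in turn, only KRT14, SFN and MIR205 stayed under 0.05 in every limma fit. CRKL and SRSF1 did so in none of these fits, and the other named list genes in some. LOX had an unadjusted p of 0.0776 without CDH26 clone 1. Leaving out a control clone keeps only 1 control, so those fits are read for differences alone. The differences of 3 genes moved by more than 1.5 times: CRKL was at 0.08 and RCOR1 at 0.23 without control clone 2, and SRSF1 at −0.16 without control clone 1.

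The profile of MIR200C over the 5 clones was closest, by root mean square difference, to those of TMEM143, a transmembrane protein gene, at 0.051, CNPPD1, at 0.054, and CCNG2, a G-type cyclin, at 0.060 log2 units. These genes had differences of 0.55 ± 0.09, 0.56 ± 0.09 and 0.56 ± 0.05 (SE). CCNG2 was at 0.58, 0.58 and 0.54 in CDH26 clones 1, 2 and 3, a narrower range than that of MIR200C. No other member differed by 0.5 or more, so no profile was matched to another.

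**Figure D4:**
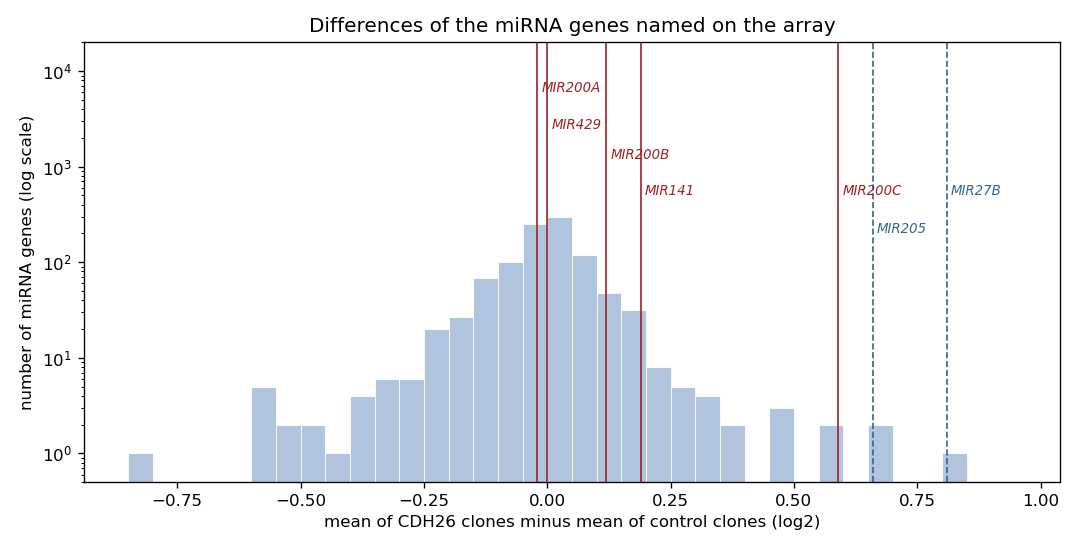
Number of miRNA genes, on a log scale, by the difference between the means of the CDH26 and control clones (log2), in bins of 0.05; solid lines mark the 5 family members and dashed lines MIR205 and MIR27B. MIR200C, at 0.59, lies near the upper end with MIR205, at 0.66, and MIR27B, at 0.81, while MIR200A and MIR429 lie at the centre.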

How the data were processed

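RNA of 5 clones was hybridised to 1 array each. The submitters' processing notes name Affymetrix Expression Console; version, summarisation and genome build: not given in the sources used here. The deposited log2 values (base taken as 2, not recorded) had been centred by the authors on the control mean: the 2 control values of every probe set summed to at most 1e-06 in size. Of 44607 probe sets, 15835 carried 1 gene, 0 several, and 28772 none; all 15835 names matched the RefSeq annotation of GRCh38.p14. Probe sets were averaged per gene. limma 3.58.1 (R 4.3.3) gave the group difference per gene (lmFit with eBayes, two-sided, Benjamini-Hochberg over 14812 genes, threshold 0.05), checked on simulated data. An exact permutation over 2 against 3 clones cannot give a p under 0.1.

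Members and lists were chosen with earlier results of these data known. Named genes were the members, up to 3 genes per list with the smallest unadjusted p under 0.05, the 3 profiles nearest to a member with a difference of at least 0.5, and up to 3 other miRNA genes in each direction by size among those whose groups did not overlap; other genes named were chosen after their values were seen. Alternatives were a replicate block, leaving out each clone, centring arrays on their medians, weights per array, a robust trended variance, probe sets singly or with the unnamed ones, only genes free of ties, and natural logarithms. The number of arrays limits the precision.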

Additional observations from a re-analysis of the deposited data

How the results depend on the processing

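With each of the 5 clones left out in turn, MIR200C ranged from 0.53 to 0.65 and SNAI2 from −0.10 to −0.04. Groups that are apart with all clones stay apart when any clone is left out, so the sides of these genes could not change. MIR200C was at 0.85 if the deposited values are natural logarithms. No other member moved by more than its spread between replicates under any alternative. The number of members with groups apart was 2, and 2 to 5 with a clone left out; without control clone 2 MIR200B, VIM and ESRP1 joined, when 23.8% of all named genes lay above and 25.7% below. The number of genes past the adjusted threshold was 0, ranged from 0 to 186 with a clone left out (186 without control clone 1), and was 1, CDH26, among genes without ties. List genes past the unadjusted threshold numbered 16, then 10 with trend and robust variance, and from 6 to 49 with a clone left out; the counts over all named genes were 1113 (7.51%), 727 (4.91%) and from 525 (3.54%) to 3023 (20.4%). With the replicate number as a block MIR200C was at 0.65, MIR200B at 0.18, and 0 genes passed. CDH26 clone 3 has no control of its number, so these differences equal those found without that clone. Clones share only a number, and across genes the deviations of clones numbered 1 correlated at −0.20 and those numbered 2 at −0.21. Array scaling left the medians of all genes at 0.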

Other observations

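Beyond the miR-200 family the table names 1017 other miRNA genes. Their median difference was 0, 509 had a positive and 493 a negative difference, and groups were apart in 69 with CDH26 above and in 46 with CDH26 below, where 8.98% and 9.93% of all named genes were. With limma 0 passed the adjusted threshold and 20 had an unadjusted p under 0.05, against 7.51% of all named genes. A larger positive difference than that of MIR200C was found for 3, of which MIR27B and MIR205 had groups that did not overlap and MIR181B1, chosen after its value was seen, had groups that did.

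MIR27B had the most positive difference among them, 0.81 ± 0.20 (SE; limma, adjusted p = 0.626), with values of 0.62, 0.87 and 0.95 in the CDH26 clones against 0.24 and −0.24 in the controls; it was 0.57 without control clone 2. MIR21, a miRNA abundant in many carcinomas, was at 0.36, 0.31 and 0.81 against 0.10 and −0.10. CDH26 clone 3 was the highest array in both, whereas it was the lowest of the CDH26 clones for MIR200C and MIR205, and also for LOX, EHF and KRT14.

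In the other direction MIR4482 was at −0.68, −0.52 and −0.53 in the CDH26 clones and at 0.02 and −0.02 in the controls, a difference of −0.57 ± 0.06 (SE; limma, unadjusted p = 0.000890, adjusted p = 0.626). MIR644A and MIR4664 were at −0.58 ± 0.25 and −0.57 ± 0.22, with control clones 0.70 apart in the first; MIR644A was at −0.23 without control clone 1 and at −0.93 without control clone 2.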
